A study of Mus musculus with 6 samples.

Results

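Regions of chromatin recovered with LncMyoD in both replicates were examined where they fell inside very long genes, taken as protein-coding genes that span 300 kb or more. Peaks of the 2 deposited lists that overlapped by at least 1 bp were joined, and the union was called shared when it held at least 1 peak of each list, measured under 3000 bp and lay on chromosomes 1 to 19. A shared region counted as a member when its midpoint lay inside a very long gene and over 1 kb from any end of a protein-coding gene, on RefSeq gene spans of the mouse build GRCm38.p6 (mm10). There were 9156 members among 91164 shared regions of that width on those chromosomes (10.04%), and among 97493 shared regions in all. They lay in 532 genes, 2.57% of the 20661 protein-coding genes on these chromosomes, with lengths from 300.2 to 2271 kb and a median of 451 kb. Gene overlap placed 42 members in more than 1 very long gene: 21 in Gm37013, Gm38666 and Gm38667, 20 in Iqschfp and Schip1, and 1 in Runx2 and Supt3.

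The libraries came from primary myoblasts of C57BL/6 mice, kept for 2 days in medium with 2% horse serum so that they formed myotubes; the labels name no transgene, knockout or drug. The 6 samples were 2 replicates each of chromatin captured with the odd probes, chromatin captured with the even probes and input. Odd and even probes are separate sets of biotinylated DNA probes along the same RNA. Each deposited peak list carries the name that the odd, even and input samples of 1 replicate share, so it was read as 1 pooled list per replicate. Odd, even and input libraries could therefore not be set against each other here, and no list from a control RNA was used. Whether the replicates were separate cultures is not given in the labels, and the read depth behind each list is unknown. Peak positions carry no expression values, so the myotube label could not be checked against muscle marker genes, and which of the very long genes were transcribed was not measured.

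LncMyoD is a long noncoding RNA transcribed near the gene of MyoD, the transcription factor that drives the muscle fate, and it is induced as myoblasts differentiate. ChIRP-seq (chromatin isolation by RNA purification) pulls an RNA out of crosslinked nuclei with antisense probes and sequences the DNA that comes with it; a peak marks DNA recovered above its background, whatever the kind of contact. Very long genes owe their length to large introns, take RNA polymerase a long time to cross, and often lie in stretches of the genome with few other genes. Many encode adhesion molecules and channels of neurons. Others serve muscle directly: the sarcoglycans and laminin of the muscle membrane, the ryanodine receptors that release calcium for contraction, and the ankyrins that anchor membrane proteins. Several have further promoters inside their introns, from which shorter isoforms start.

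Those internal promoters were the places inside very long genes for which the reference tables held sequence. RefSeq windows (GRCm38.p6) of 300 bases, with 250 bases before a transcript start and 50 after it, put 275 further starts of 181 very long genes in the interior of their own gene. Of these windows, 29 (10.5%, exact 95% interval 7.18 to 14.8) in 26 genes overlapped a shared region. The share was 9.84% of 3332 windows of protein-coding starts inside shorter genes. A 300-base window placed at every position of the interior would overlap a shared region at 3.602% of positions in very long genes and 5.07% in shorter genes. Windows at transcript starts inside very long genes thus overlapped shared regions at above the share of all positions, as did those inside shorter genes. Several overlapping windows lay close to the start of their gene, such as 1.75 kb in Foxp1 and 3.60 kb in Fbxl17. Others lay far inside, such as 281 kb in Apbb2. The share of all positions does not allow for this placement. The start itself can lie outside the region that its window overlaps. Of the 29 windows, 28 overlapped a member; the exception, in Lrba, overlapped a shared region that did not meet the rule. 13 windows lay wholly inside the region, and at 7 windows the region reached 20-fold or more in both lists. Windows with a region had a median GC content of 61.0%, against 51.0% in the 246 without one. Of the 118 windows with a GC content of 55% or more, 17 (14.4%) had a region, against 12 of 157 (7.64%) below that content; the part of GC content in the overlap was not tested beyond this split. Starts of lncRNA genes inside very long genes overlapped a shared region in 27 of 525 windows (5.14%), against 7.04% inside shorter genes and 6.35% outside protein-coding genes.

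The 7 windows whose region reached 20-fold or more in both lists are shown, as the windows with the strongest regions. This choice was made after their values were seen. Ank2 encodes ankyrin-B, which holds calcium-handling proteins in place at muscle membranes, and Rbfox3 a splicing factor of neurons. Pde1a encodes a calcium- and calmodulin-dependent phosphodiesterase, Apbb2 an adaptor that binds the tail of the amyloid precursor protein, Frmd4b a scaffold protein with a FERM domain and Grik2 a glutamate receptor subunit. Capitals mark each CAGCTG, an E-box of the kind that MyoD and related factors bind, which reads the same on both strands. Other E-boxes, such as CACCTG, were not searched or marked, so a window without capitals can still hold one.
Ank2 internal start, chr3:127409009-127409308, minus strand: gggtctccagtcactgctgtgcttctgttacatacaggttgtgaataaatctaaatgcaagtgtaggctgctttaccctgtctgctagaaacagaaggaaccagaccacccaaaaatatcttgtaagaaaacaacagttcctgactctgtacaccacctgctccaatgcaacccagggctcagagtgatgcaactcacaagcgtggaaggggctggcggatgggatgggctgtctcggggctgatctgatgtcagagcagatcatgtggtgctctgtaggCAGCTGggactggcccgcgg
Rbfox3 internal start, chr11:118760992-118761291, minus strand: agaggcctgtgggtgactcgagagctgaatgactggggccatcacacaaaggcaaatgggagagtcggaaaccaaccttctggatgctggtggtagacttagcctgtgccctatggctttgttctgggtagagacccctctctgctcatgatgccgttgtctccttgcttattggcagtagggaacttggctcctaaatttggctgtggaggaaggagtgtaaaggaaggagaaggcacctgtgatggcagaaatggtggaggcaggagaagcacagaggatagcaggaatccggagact
Apbb2 internal start, chr5:66337616-66337915, minus strand: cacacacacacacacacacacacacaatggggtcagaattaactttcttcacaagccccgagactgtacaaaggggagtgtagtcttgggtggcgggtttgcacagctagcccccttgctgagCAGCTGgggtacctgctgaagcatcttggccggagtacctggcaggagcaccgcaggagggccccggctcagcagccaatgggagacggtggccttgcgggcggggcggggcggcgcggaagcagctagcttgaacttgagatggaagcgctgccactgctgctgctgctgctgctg
Frmd4b internal start, chr6:97487771-97488070, minus strand: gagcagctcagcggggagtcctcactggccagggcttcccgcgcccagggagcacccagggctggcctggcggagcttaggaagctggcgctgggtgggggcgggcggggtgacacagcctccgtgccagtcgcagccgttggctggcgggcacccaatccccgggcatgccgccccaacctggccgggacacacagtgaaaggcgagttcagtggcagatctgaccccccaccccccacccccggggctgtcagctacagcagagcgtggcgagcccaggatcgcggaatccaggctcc
Grik2 internal start, chr10:49788705-49789004, minus strand: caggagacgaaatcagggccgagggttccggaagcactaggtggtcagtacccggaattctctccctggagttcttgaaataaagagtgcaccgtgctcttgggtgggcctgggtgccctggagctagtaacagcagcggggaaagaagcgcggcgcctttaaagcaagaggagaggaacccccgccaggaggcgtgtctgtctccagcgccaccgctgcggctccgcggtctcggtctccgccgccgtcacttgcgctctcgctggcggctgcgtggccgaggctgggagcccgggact
Pde1a first internal start, chr2:80128922-80129221, minus strand: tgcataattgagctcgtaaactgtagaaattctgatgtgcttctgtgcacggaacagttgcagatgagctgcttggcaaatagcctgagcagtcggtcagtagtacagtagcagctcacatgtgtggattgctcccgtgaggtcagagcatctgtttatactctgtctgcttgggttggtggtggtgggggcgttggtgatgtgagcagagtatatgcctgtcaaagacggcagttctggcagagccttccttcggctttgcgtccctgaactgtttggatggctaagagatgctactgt
Pde1a second internal start, chr2:80129363-80129662, minus strand: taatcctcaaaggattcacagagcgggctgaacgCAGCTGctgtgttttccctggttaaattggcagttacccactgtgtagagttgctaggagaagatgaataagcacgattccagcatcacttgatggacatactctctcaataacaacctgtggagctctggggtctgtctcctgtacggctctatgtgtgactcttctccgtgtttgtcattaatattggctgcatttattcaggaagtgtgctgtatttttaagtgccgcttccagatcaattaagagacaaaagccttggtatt

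The Ank2 window lay 91.3 kb inside the gene, and its member measured 34.5-fold in the list of replicate 1 and 40.2-fold in that of replicate 2. Ank2 had 4 internal starts in the table, and the windows of 3 overlapped a member. The other members measured 24.2-fold and 13.9-fold, 557 kb inside the gene, and 11.02-fold and 9.88-fold near its start. The Apbb2 window lay wholly inside a member of 35.3-fold and 34.9-fold, 281 kb from the start of the gene. The Rbfox3 window, 151 kb inside the gene, shared 25 bases at its upstream end with a member of 32.1-fold and 30.4-fold, so the start itself lay outside that member. The Frmd4b window lay inside a member of 33.2-fold and 27.3-fold, and the Grik2 window inside one of 35.3-fold and 27.2-fold. From the start of its gene, the Frmd4b start lay 130 kb away and the Grik2 start only 1.41 kb. Both Pde1a windows lay inside 1 member, chr2:80128557-80130048, of 21.3-fold and 32.1-fold, so they are not separate observations. Of the muscle list, described further on, Palld and Fmn1 also had a window of an internal start that overlapped a member. These members measured 15.1-fold and 12.7-fold in Palld and 10.65-fold and 3.21-fold in Fmn1. CAGCTG occurred in 7 of the 29 windows with a region (24.1%), in 47 of the 246 without one (19.1%) and in 5355 of all 32851 RefSeq promoter windows (16.3%). In 5 of the 7 it lay inside the region; in Palld and Magi2 it lay in the stretch of the window that the region did not reach. Of the 7 windows shown, 3 hold it. A match is a run of letters and no shown binding site.

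A single microRNA hairpin overlapped a shared region, and only in part. Its products are shown because it was the only overlap, and not as a result about microRNAs. Members covered 2.70% of the interior of very long genes, and 1 overlap among 46 hairpins is near that share. Of 46 hairpins in the interior of very long genes, Mir3105 in Shank2, a scaffold gene of synapses (chr7:144009254-144009338), overlapped a region at chr7:144007956-144009292 of 6.61-fold and 14.2-fold. The RefSeq mature sequences follow, with the seed (bases 2 to 8) in capitals.
mmu-miR-3105-5p: aGAGCAAGcccguaagcagcgu
mmu-miR-3105-3p: aCUGCUUAugagcuugcacucc

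The members were compact and moderately enriched. Their median width was 745 bp, with quartiles of 494 and 1164 bp and a range of 201 to 2984 bp, and 8041 of them (87.8%) were made of 1 peak from each list. Fold is the authors' enrichment at the peak over background. Where a region held several peaks of a list, the fold of the peak with the highest −log10 q was taken. For members it had a median of 10.97 in replicate 1 (quartiles 6.35 and 21.3, range 2.25 to 102) and 12.1 in replicate 2 (quartiles 7.10 and 23.2, range 2.17 to 105). Shared regions inside shorter protein-coding genes had medians of 10.65 and 11.7, and those outside protein-coding genes 10.9 and 12.0. These medians differ by far less than the spread among members. Members had a median −log10 q of 23.97 (replicate 1) and 32.8 (replicate 2), against 22.7 and 31.5 inside shorter genes.

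The share of strong members was close to that of all shared regions. A fold of 20 or more in both lists was reached by 1938 members (21.2%, exact 95% interval 20.3 to 22.0), beside 20.3% of all shared regions on these chromosomes, 19.2% inside shorter genes and 20.6% outside. Both replicates gave most members a like fold: the values lay within a factor of 2 for 84.4% of members and for 85.3% of the other shared regions. Replicate 2 had the higher fold at 54.7% of members. Across the 9156 members the log2 folds of the lists correlated with r = 0.78 and rho = 0.75, and across the 82008 other shared regions with r = 0.78 and rho = 0.76. These are descriptions over regions that share cells, libraries and base composition.

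The strongest member by the mean percentile of −log10 q lay in Tenm2, which encodes a teneurin, a cell-surface protein that joins neurons. It covered chr11:36618484-36621145, measured 102-fold and 103-fold, and came 5th among all 91164 shared regions. Galnt13, a glycosyltransferase gene, followed with 102-fold and 75.4-fold at chr2:54567140-54568266. Cfap54, a gene of cilia and flagella, held a member of 96.8-fold and 62.0-fold. Ephb1, an ephrin receptor gene, held 1 at 95.1-fold and 76.3-fold. Plcb4, a phospholipase C gene, held 1 at 92.2-fold and 75.7-fold. Itpr2, a receptor gene that lets inositol trisphosphate release calcium, held 1 at 86.1-fold and 75.7-fold. Cdh4, the gene of R-cadherin, held a further pair, at 84.7-fold and 76.3-fold and at 91.5-fold and 62.8-fold. The lower fold of each of these members was 62.0 or more, and the genes have no single role in common.

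Very long genes held fewer shared regions per length than other genes. Their interior, the bases over 1 kb from any protein-coding gene end, had 30.6 members per Mb (exact Poisson 95% interval 29.9 to 31.2, over 299.5 Mb). The interior of shorter protein-coding genes had 41.8 shared regions per Mb (41.3 to 42.3, 26890 regions over 642.7 Mb), and DNA outside protein-coding genes 35.6 (35.3 to 35.9, 50701 regions over 1425 Mb). The ratio of very long to shorter genes was 0.731 (0.713 to 0.748), and that to DNA outside genes 0.859. The 200 kb flanks of the very long genes themselves, where no protein-coding gene lies, had 35.6 per Mb (34.6 to 36.6), which makes a ratio of 0.858. Each list alone gave the same order. Replicate 1 had 50.6 peaks per Mb in very long genes, 67.3 in shorter genes and 57.1 outside, and replicate 2 had 59.2, 79.4 and 65.0. Members covered 2.70% of the interior, against 3.83% in shorter genes and 3.13% outside. Regions of 20-fold or more in both lists stood at 6.47 per Mb in very long genes, 8.04 in shorter genes and 7.33 outside. The intervals cover counting error only. Both lists came from 1 condition, so no test over replicates was possible.

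Density was lower in longer genes across the whole range of lengths, and not only above 300 kb. Genes of up to 25 kb had 51.5 shared regions per Mb of interior, genes of 50 to 100 kb 40.2, and genes of 200 to 300 kb 37.6. The 317 genes of 300 to 500 kb had 34.6, the 160 genes of 500 to 1000 kb had 29.3, and the 55 genes of 1000 kb or more had 25.6. Peak density of replicate 1 went from 81.1 to 42.2 per Mb between the shortest and the longest class, and those of replicate 2 from 96.3 to 49.5. Fold did not go the same way: the share of regions at 20-fold or more in both lists was 18.9% in the shortest class and 22.0% in the longest. Fewer regions per Mb in longer genes was thus seen in both lists, while the regions present there were no weaker.

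**Figure D1:**
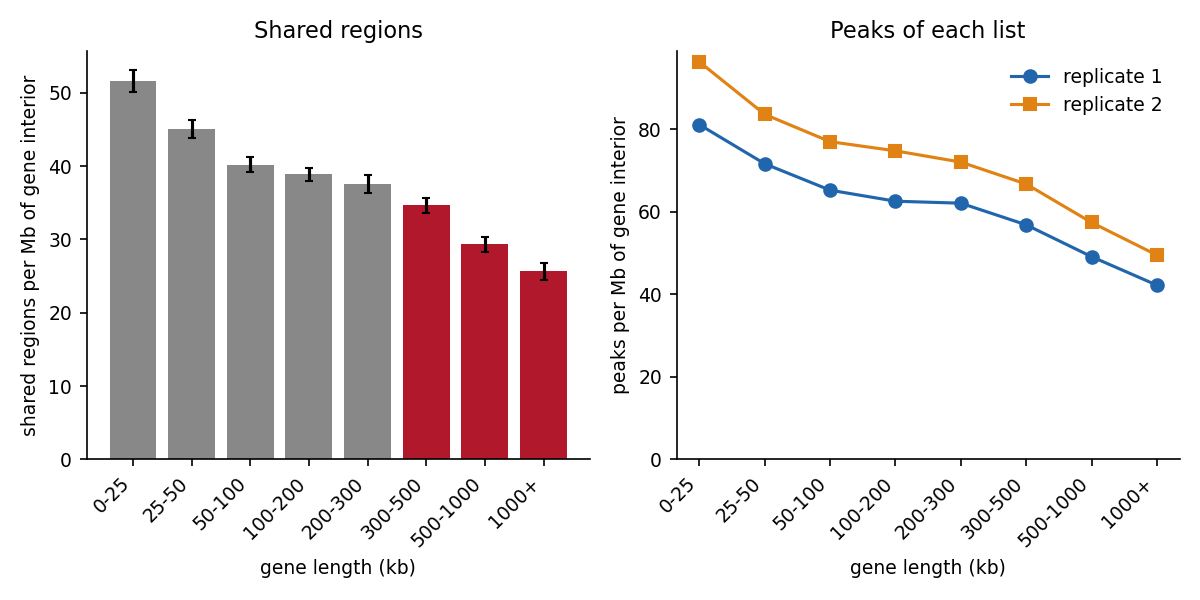
Shared regions (left, bars with exact Poisson 95% intervals) and peaks of each list (right, points) per Mb of gene interior, by class of gene length in kb; classes of 300 kb or more are red on the left. Shared regions go from 51.5 per Mb in the shortest class to 25.6 per Mb in genes of 1000 kb or more, and the peaks of each list go down along with them.

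The lower density held on every chromosome. Very long genes had fewer shared regions per Mb than shorter genes on 19 of 19 chromosomes, with ratios from 0.599 on chromosome 16 to 0.866 on chromosome 9 and a mean of 0.739 ± 0.0755 (SD, n = 19 chromosomes). Against DNA outside genes they were lower on 17 of 19; the exceptions were chromosome 8 (ratio 1.01) and chromosome 11 (1.03). The density of members itself went from 22.7 per Mb on chromosome 16 to 38.7 on chromosome 11. Chromosomes are parts of the same 2 lists and not replicates.

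**Figure D2:**
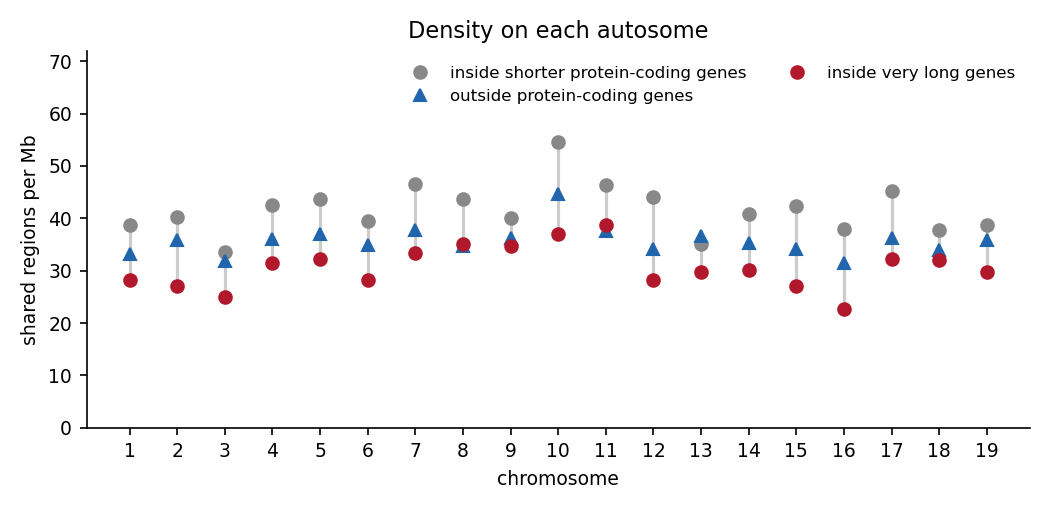
Shared regions per Mb on each of chromosomes 1 to 19 inside very long genes, inside shorter protein-coding genes and outside protein-coding genes. The value of very long genes lies below that of shorter genes on all 19 chromosomes and below that of DNA outside genes on 17.

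The number of protein-coding genes in the same fixed Mb of chromosome moved with the density, and the difference was smaller once that number was held alike. A gene counted in every Mb that its span touched, so the number includes the very long gene itself. Such a gene fills much of its Mb and leaves less room for others, so the number is not independent of gene length. Of the very long interior, 71.0% lay in a Mb with 5 or fewer protein-coding genes, against 19.4% of the shorter genes' interior. In a Mb with 0 to 2 genes, very long genes had 25.3 members per Mb, shorter genes 29.3 shared regions and DNA outside genes 27.1. With 3 to 5 genes the values were 31.5, 35.2 and 35.7, with 6 to 10 genes 36.0, 37.7 and 40.1, and with 11 or more 41.8, 47.5 and 46.7. Density was thus higher at higher gene number in all 3 kinds of DNA, and very long genes had the lowest value at each step. Weighted to the gene numbers of the very long genes, shorter genes had 34.1 per Mb, which makes the ratio 0.896, and DNA outside genes 33.8, a ratio of 0.906. This weighting was chosen after the first densities had been seen. GC content, mappability and expression of the surroundings were not measured, and their part in the densities was not tested.

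Peaks inside very long genes found a partner in the other list at shares slightly below those of the other classes. In replicate 1, 9945 of 15142 peaks (65.7%, exact 95% interval 64.9 to 66.4) overlapped a peak of replicate 2, beside 67.9% of all peaks of that list on these chromosomes, 68.3% in shorter genes and 67.7% outside. In replicate 2, 9764 of 17744 peaks (55.03%) had a partner, beside 57.7% of all its peaks, 56.5% in shorter genes and 58.7% outside. The shares depended far more on peak strength than on place. From the weakest to the strongest of 4 classes of −log10 q, set so that each held an equal number of all peaks of the list, replicate 1 had 41.5%, 60.2%, 73.9% and 88.9% of its very long gene peaks partnered, against 45.7%, 62.8%, 76.5% and 91.1% in shorter genes. Replicate 2 had 28.8%, 45.1%, 62.2% and 84.6%, against 29.4%, 46.3%, 66.6% and 86.0%. The shares in very long genes were below those in shorter genes in every class of both lists. Peaks were also sparser in very long genes, as given above, and the part of that in these shares was not tested.

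All 532 very long genes held at least 1 member (exact lower limit 99.3%), where 55.9% of all protein-coding genes with an interior held a shared region. A longer gene has more room, so this share is not a density. A gene had 1 to 72 members, with a median of 15 and quartiles of 10 and 22, and 421 genes had 10 or more. Per Mb of interior the genes went from 2.37 to 124, with a median of 29.9 and quartiles of 22.6 and 39.5. The best member of a gene had a median of 47.0-fold in replicate 1 and 45.1-fold in replicate 2, and 35 genes had no member at 20-fold or more in both lists. Genes that were rich in 1 list were rich in the other: peaks per Mb correlated with r = 0.89 and rho = 0.85 over the 532 genes. Members per Mb went weakly with log10 gene length (r = −0.23, rho = −0.21), with the density of the gene's own flanks over 512 genes (r = 0.40, rho = 0.32) and with the number of protein-coding genes within 1 Mb (r = 0.34, rho = 0.43). These are descriptions across genes, which share libraries and base composition and are not replicates. Of the 512 genes, 327 (63.9%) had fewer members per Mb than their flanks. The 155 genes with the fewest neighbours, 7 or fewer within 1 Mb, had 24.1 members per Mb together, and the 138 genes with 18 or more neighbours had 38.2.

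**Figure D3:**
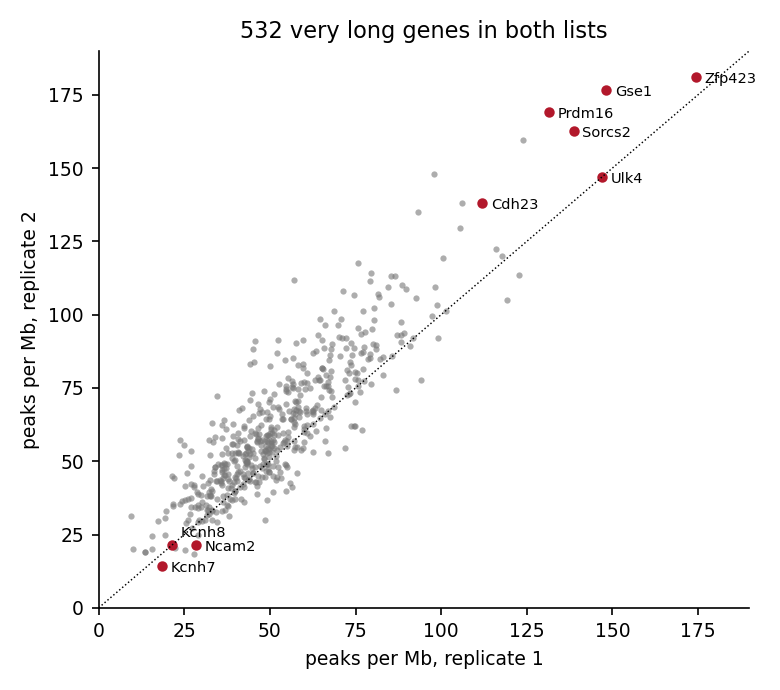
Peaks per Mb of interior in replicate 1 (horizontal axis) and replicate 2 (vertical axis) for the 532 very long genes, 1 point a gene, with the 6 densest and 3 of the sparsest genes named and a dotted line where both lists would be equal. Zfp423 lies at the top right with 124 members per Mb and Ncam2 near the bottom left with 2.37, and the points run along 1 band (r = 0.89).

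The 6 densest genes had 80.8 to 124 members per Mb, above the upper quartile of 39.5. Zfp423, the gene of a zinc finger protein known from fat cell precursors, had 37 members in 300.2 kb, 124 per Mb (exact Poisson 95% interval 87.3 to 171), from 52 and 54 peaks. Gse1, which encodes a coiled-coil protein, had 38 members (108 per Mb), and Sorcs2, a sorting receptor gene, had 35 (93.3). Ulk4, a gene of the ULK kinase family, had 29 (90.7), but 17 of them lay in 1 cluster of weak regions, and the gene without that cluster had 43.7 per Mb. Prdm16, a factor that steers precursors between muscle and brown fat, had 27 (84.6), with a best member of 79.9-fold and 59.3-fold. Cdh23, a cadherin gene of hair cells, had 31 (80.8). The lower bounds of the intervals were 54.9 for Cdh23 and 55.7 for Prdm16, beside a median gene at 29.9 per Mb. These genes were chosen for being densest. The intervals allow neither for that choice nor for members that lie in clusters.

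The 6 sparsest genes had 2.37 to 6.67 members per Mb, below the lower quartile of 22.6. Ncam2, the gene of a neural cell adhesion molecule, held 1 member in 424 kb (2.37 per Mb, 0.0601 to 13.2), from 12 peaks in replicate 1 and 9 in replicate 2. That member, chr16:81305017-81307001, was strong in both lists, at 49.8-fold and 63.6-fold, and ranked 85th of all members. Kcnh7 and Kcnh8, potassium channel genes, held 2 members each (4.10 and 5.34 per Mb), none above 13.3-fold in either list. Lrrc7, the gene of a postsynaptic scaffold protein, held 3 members (6.09 per Mb), of 24.7-fold and 31.8-fold, 24.2-fold and 13.5-fold, and 16.1-fold and 7.41-fold. Slit2, an axon guidance ligand gene, held 2 (6.16), of 5.14-fold and 5.25-fold and of 9.55-fold and 12.0-fold. Sema5a, a semaphorin gene, held 3 (6.67), the best at 35.3-fold and 26.6-fold. In each of these genes both lists were sparse, with 6 to 12 peaks a list. Their shares of partnered peaks were also low. In replicate 1 they went from 8.33% in Ncam2 to 42.9% in Sema5a, where the median over all very long genes was 65.5%. In replicate 2 they went from 11.1% in Ncam2 to 33.3% in Slit2, where that median was 55%. Choosing genes with few members favours both traits.

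Members were unevenly spaced inside the genes. The median distance between neighbouring members of a gene was 19.3 kb over 8585 pairs, with quartiles of 7.11 and 40.7 kb. Of the pairs, 18.7% lay under 5 kb apart and 4.67% over 100 kb. The longest stretch of a gene's span without a shared region of any width had a median of 104 kb. It went from 26.3 kb in Sorcs2 to 333 kb in Kcnip4 and was over 200 kb in 41 genes. The next longest were 317 kb in Ncam2, 312 kb in Naaladl2, 297 kb in Foxp2, 296 kb in Kcnt2 and 294 kb in Kcnh7. These stretches were not free of peaks: that of Kcnip4 held 4 peaks of replicate 1 and 7 of replicate 2, and that of Ncam2 held 6 of each. At the other end, the most members within 50 kb had a median of 4 a gene and reached 17 in Ulk4, between 121194596 and 121239504 on chromosome 9. Those 17 were weak, with median folds of 4.78 and 4.77 against 10.97 and 12.1 over all members, and they covered 32.2% of the 44.9 kb. Mappability there was not measured. Zfp423 had 12 members within 38.3 kb, at median folds of 9.92 and 7.26. Sorcs2 and Zfp993 had 10 each. Genes named here beyond the naming rule were picked after their values were seen. Unlike the single strong regions above, the Ulk4 cluster thus combined high number with low fold in both lists.

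The genes of 7 lists of known function were then described: 258 of the very long genes were in at least 1 list and 274 in none. The muscle list, of membrane, calcium-handling and cytoskeletal genes, had 32 very long genes with 620 members. Their median density was 32.2 per Mb, beside 29.9 over all very long genes, and 17 of the 32 lay above that median. Of the members in these genes, 20% reached 20-fold in both lists, beside 20.3% of all shared regions. Split by length, its median was 35.001 against 33.1 per Mb for the other genes of 300 to 500 kb, 33.3 against 29.0 at 500 to 1000 kb and 27.9 against 23.8 at 1000 kb or more. With 17, 11 and 4 genes in these classes, the list was somewhat above the other genes in each. Those other genes include the sparser neuronal adhesion and synaptic lists, described further on. Genes in no list had a median of 33.0 per Mb over all lengths, against 32.2 for the muscle list. Their median length was 405 kb, against 491 kb. Single genes of the muscle list went from 8.26 to 66.0 per Mb. By length class, genes of the muscle list also had more neighbours than the other genes, with medians of 16, 13 and 12 protein-coding genes within 1 Mb against 12.5, 10 and 7. Their flanks had medians of 38.1, 32.0 and 22.9 shared regions per Mb, against 35.4, 34.3 and 29.0 for the other genes. The part of the surroundings in the density of the list was not tested.

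Among genes of the muscle membrane, the dystrophin-associated proteins were near the middle. Sgcd, the delta-sarcoglycan gene in which mutations cause limb-girdle muscular dystrophy, had 29 members in 1018 kb (28.5 per Mb), the best at 36.0-fold and 54.4-fold. Its relative Sgcz had 32 (28.0 per Mb). Lama2, the laminin chain of the muscle basement membrane, had 21 (33.1), the best at 53.1-fold and 54.6-fold, and Utrn, the dystrophin-related utrophin, had 17 (35.001), the best at 47.3-fold and 53.1-fold. Dtna, the alpha-dystrobrevin gene, had 9 (25.9), 1 of them at 80.1-fold and 65.2-fold. Sntg1, a syntrophin gene, had 33 (35.1), with a best member of 90.4-fold and 60.4-fold. The 6 genes spanned 25.9 to 35.1 per Mb, within the quartiles of all very long genes. Nrg1, the neuregulin ligand that acts at nerve-muscle contacts, had 29 (26.8), with a best member of 69.4-fold and 65.8-fold.

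Calcium and potassium handling genes spread more widely. Of the voltage-gated calcium channel genes, Cacna1d had 17 members (38.1 per Mb), Cacna1c, the main cardiac L-type channel, 22 (36.3), Cacna2d3 27 (33.3), Cacnb2 9 (23.5) and Cacna2d1, the subunit of the skeletal muscle channel, 10 (22.8). Of the release channel genes, Itpr2 had 24 (61.2 per Mb), Itpr1 18 (53.6), Ryr3 24 (41.1) and Ryr2, the cardiac ryanodine receptor, 16 (29.0). Trdn, the gene of triadin, which ties the release channel to the calcium store, had 14 (35.8), the best at 49.1-fold and 44.8-fold. The intervals of single genes are wide at such numbers: that of Itpr2 was 39.2 to 91.1 per Mb and that of Ryr2 16.6 to 47.1, so they overlap. Slc8a1, the sodium-calcium exchanger, was the sparsest gene of the list with 3 members (8.26, interval 1.70 to 24.1), although its best measured 34.9-fold and 53.4-fold. Kcnq1, a potassium channel gene with an imprinted noncoding RNA in an intron, was the densest with 21 (66.0), and Kcnma1, the calcium-activated potassium channel, had 18 (25.3), the best at 87.8-fold and 72.3-fold. The phosphodiesterase genes Pde4b and Pde4d, which break down cyclic AMP, had 14 (27.0) and 36 (27.7); the best member of Pde4b reached 92.2-fold and 58.2-fold.

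Cytoskeletal genes ranged from 15.1 to 65.0 per Mb. Ank3, ankyrin-G, had 32 members (65.0 per Mb, interval 44.5 to 91.8) and Ank2 had 18 (31.2, interval 18.5 to 49.3). The microtubule-binding Nav2 and Nav3 had 34 (52.4) and 28 (36.2). Fhod3, a formin needed for sarcomeres, had 20 (47.5), where the formin genes Fmn1 and Fmn2 had 9 (23.2) and 6 (18.8). Of the giant linker genes, Dst had 15 (37.6, interval 21.1 to 62.0) and Macf1 had 5 (15.1, interval 4.89 to 35.1), so their intervals overlap. The best member measured 41.5-fold and 14.1-fold in Dst and only 5.57-fold and 12.4-fold in Macf1. Palld had 10 (25.7), the best at 23.5-fold and 17.9-fold. The list's median for the best member was 45.1-fold and 46.1-fold over the 32 genes. The best members of Dst, Macf1 and Palld were below it in both replicates, as were those of Ank2, Ank3, Nav3 and Fhod3.

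**Figure D4:**
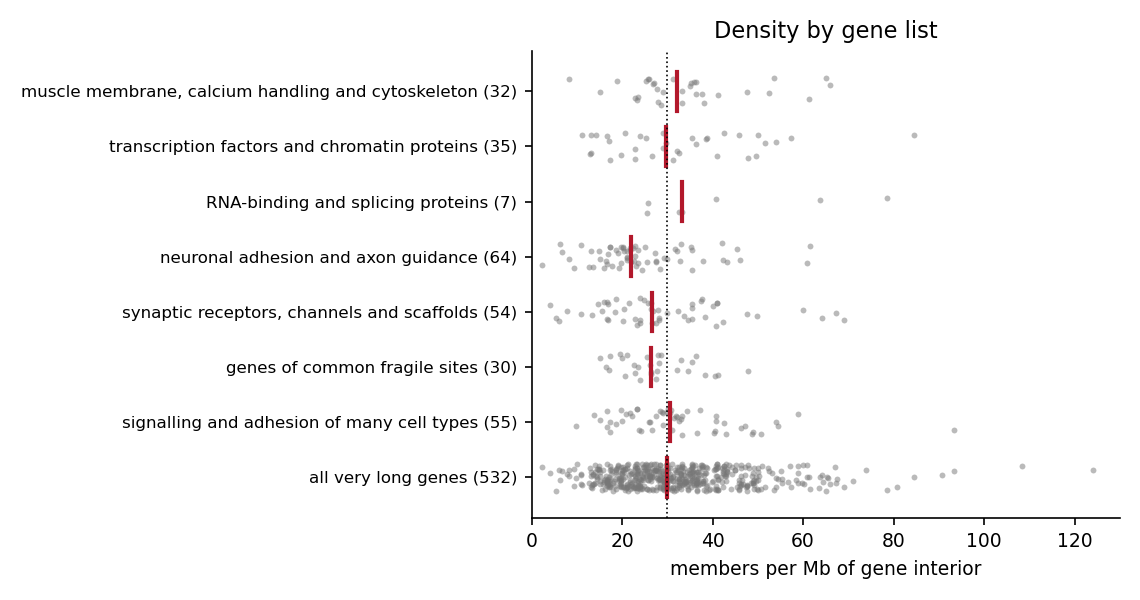
Members per Mb of interior for each very long gene, by gene list, 1 point a gene, with the median of each list as a red bar and that of all 532 genes as a dotted line. The neuronal adhesion list has the lowest median, 21.8 per Mb, and the RNA-binding list the highest, 33.2 per Mb, with wide overlap between lists.

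Neuronal adhesion and axon guidance genes had the lowest density of the lists. Their 64 very long genes had a median of 21.8 per Mb (pooled 23.9), and 15 (23.4%) lay above the median of all. The list holds many of the longest genes, yet it was lower at each length: 21.7 against 33.5 per Mb for the other genes of 300 to 500 kb, 20.6 against 29.4 at 500 to 1000 kb, and 22.9 against 26.6 at 1000 kb or more. The genes of the list also had fewer neighbours, with medians of 6, 6.5 and 5 protein-coding genes within 1 Mb against 13.5, 10.5 and 10. Their flanks had medians of 34.8, 30.0 and 26.3 shared regions per Mb, against 37.2, 34.5 and 30.2 for the other genes. The part of gene-poor surroundings in the density of the list was not tested. The members it had were not weak: 24.2% reached 20-fold in both lists, beside 20.3% of all shared regions. Tenm2, Cdh4 and Cntnap5b were among the strongest genes of the list; the last, a contactin-associated protein gene, had 9 members (12.6 per Mb), 1 of them at 94.4-fold and 71.3-fold.

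The 54 very long genes of synaptic receptors, channels and scaffolds had a median of 26.5 per Mb, with 20 above the median of all. Kcnip4, Kcnq5 and Gria4, the genes of a channel-interacting protein, a potassium channel and a glutamate receptor subunit, had 19, 15 and 5 members (16.8, 26.7 and 13.3 per Mb). Their best members measured 76.5-fold and 52.1-fold, 74.9-fold and 59.8-fold, and 58.0-fold and 61.5-fold. Nkain2, which encodes a protein that interacts with the sodium pump, had 45 (37.3), with a best member of 74.95-fold and 64.9-fold. A gene could thus be sparse and still hold a member among the strongest, as in Gria4.

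Transcription factor and chromatin genes had a median of 29.6 per Mb over 35 genes, with 17 above the median of all. Smyd3, a lysine methyltransferase gene, had 28 members (49.6 per Mb), the best at 92.2-fold and 62.1-fold. Esr1, the estrogen receptor alpha gene, had 16 (40.9), the best at 86.2-fold and 70.1-fold, and Esrrg, an estrogen-related receptor gene active in oxidative muscle, had 22 (36.4), the best at 79.7-fold and 79.1-fold. Prdm16 was the remaining leader. The 7 RNA-binding genes had a median of 33.2 per Mb, with 5 above the median of all. The musashi gene Msi2 had 24 (63.7), Adarb2, of the RNA-editing enzyme family, 23 (40.8), Rbms3 35 (33.2) and Rbfox1, a splicing regulator of muscle and brain, 39 (25.6). Their best members measured 43.0-fold and 49.1-fold, 79.0-fold and 40.5-fold, 72.3-fold and 79.1-fold, and 63.9-fold and 61.5-fold.

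Genes of common fragile sites, which break under replication stress, had a median of 26.3 per Mb over 30 genes, with 9 above the median of all. Their median length was 1217 kb. The 22 of 1000 kb or more had a median of 25.8 against 23.8 per Mb for other genes of that length, where the pooled values ran the other way (24.8 against 26.3). The 8 of 500 to 1000 kb had 35.5 against 29.0. Wwox, an oxidoreductase gene, had 35 members (38.4 per Mb), the best at 58.0-fold and 82.2-fold, and Auts2 had 39 (35.3), the best at 62.4-fold and 63.3-fold. Signalling and adhesion genes of many cell types had a median of 30.6 per Mb over 55 genes, with 30 above the median of all. Mapk10, a gene of the JNK kinases, had 5 members (16.6), the best at 88.1-fold and 69.8-fold, and Inpp4b, an inositol phosphatase gene, had 21 (26.6), the best at 72.4-fold and 88.3-fold. Genes in no list had a median of 33.0 per Mb. Some genes belong to more than 1 list, so the lists are not independent of each other.

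The 8 longest genes were mostly below the median density. Ptprd, a receptor phosphatase gene of 2271 kb, had 34 members (15.0 per Mb, interval 10.4 to 20.9). Cntnap2, an adhesion gene of axons, had 72 (32.2), the most of any gene, and Csmd1 had 54 (33.0). The adhesion gene Lsamp had 46 (21.0), Lrp1b of the LDL receptor family 47 (22.9), and Macrod2, which encodes an ADP-ribose hydrolase, 39 (19.6). Dlg2, a synaptic scaffold gene, had 47 (23.8) and the neurexin gene Nrxn3 37 (23.0). Ptprd and Cntnap2 have nearly the same length, and the interval of Cntnap2 (25.2 to 40.5) lies above that of Ptprd. Both lists gave the difference, with 61 and 85 peaks in Ptprd against 111 and 110 in Cntnap2.

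Shares of partnered peaks were compared among genes with 20 or more peaks in each list, and the 4 lowest are given. Genes with fewer peaks could lie lower, such as Ncam2 with 1 of 12 in replicate 1 and 1 of 9 in replicate 2. Dnm3, a dynamin gene, had 8 of 22 in replicate 1 and 8 of 24 in replicate 2. Nfia, a transcription factor gene, had 10 of 28 and 9 of 24, Fam172a 9 of 21 and 10 of 26, and Elmo1, which activates Rac and takes part in myoblast fusion, 11 of 25 and 9 of 23. The median over all very long genes in replicate 1 was 65.5%, and these genes had 35.7% to 44.0% there and 33.3% to 39.1% in replicate 2. They were chosen for being lowest.

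Along the gene, members were spread nearly evenly. In the 405 genes whose strand the promoter table gave, 10 equal stretches of the gene from start to end had 31.2, 29.2, 28.4, 30.3, 31.5, 29.0, 27.6, 31.7, 31.2 and 33.2 members per Mb. Most of their intervals overlap, but that of the last stretch (30.8 to 35.6) lies above those of the third (26.2 to 30.6) and the seventh (25.5 to 29.8). Close to the ends, the stretch 1 to 5 kb inside the 3′ end had 44.2 members per Mb (34.5 to 55.7, 71 members), and the stretch 1 to 5 kb inside the 5′ start had 32.9 (24.6 to 43.0, 53 members). From 5 to 10 kb inside, the values were 32.1 at both ends.

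**Figure D5:**
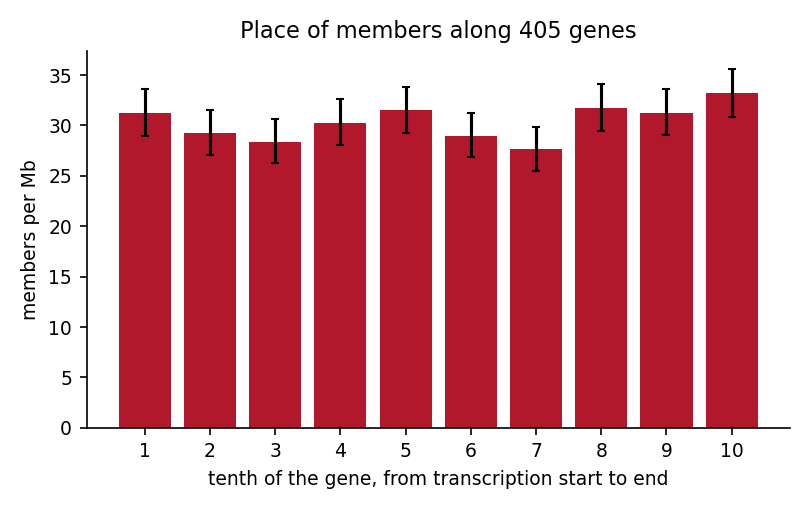
Members per Mb in 10 equal stretches of the gene from 5′ start to 3′ end over the 405 very long genes with a known strand, with exact Poisson 95% intervals. The values run from 27.6 to 33.2 per Mb, with the highest in the last stretch.

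Genes nested inside the very long genes took few members. Nested lncRNA genes held 389 members (4.25%), at 30.5 per Mb, the same as the very long interior as a whole. Shorter protein-coding genes held 75, at 33.7 per Mb (26.5 to 42.2). Pseudogenes held 54, at 57.2 per Mb (42.9 to 74.6) over 0.945 Mb, above the 30.6 of the interior. Pseudogenes carry sequence copied from other genes, and the sources used here do not say how reads from such copies were placed.

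Values on both sides of the rule's thresholds are given as a description. The 60 genes of 280 to 300 kb, just outside, had 36.0 shared regions per Mb, with median folds of 10.65 and 12.4, and the 43 genes of 300 to 320 kb, just inside, had 37.6, with 11.4 and 12.0. The 12 members of 2800 bp or more had median folds of 52.4 and 50.04, and the 35 regions left out at 3000 bp or more, up to 5333 bp, had 54.7 and 46.6. The 77 regions left out within 1 kb of a gene end had 12.1 and 11.4, and the 58 members 1 to 2 kb from an end had 8.81 and 10.8.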

How the data were processed

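ChIRP-seq of LncMyoD was done in mouse myotubes, and 2 peak lists were deposited. MACS2 2.1.1, Bowtie2 2.3.2 and Picard 2.9.2 are listed, with mm10, in the submitters' processing notes. For the peak calls, the treatment, control and threshold were not given in the sources used here. From each list were used the deposited ratio (fold enrichment at the peak), the deposited −log10 q value and the position of the summit, as the narrowPeak layout of the authors' files orders them. The authors' values were used only to describe and rank peaks within a list.

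Regions, members and gene interiors were computed from peak coordinates and a RefSeq gene table (GRCm38.p6) in Python 3.11.15 (pandas 2.3.3, numpy 2.4.6, matplotlib 3.10.9 and scipy 1.17.1), with the counting tested on simulated data. The interior counted each base once, and a base in any very long gene counted there. In each list, a region took the fold and −log10 q of its peak with the highest −log10 q. Shares have exact Clopper-Pearson 95% intervals and densities exact Poisson ones, covering counting error only. No p-values were computed, since each replicate gave 1 pooled list of the same condition.

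Members and gene lists were chosen with earlier results of these data known. Genes were named by a rule: muscle list genes of 300 kb or more; the 4 genes of each other list with the strongest best member; the genes of the 10 strongest members; the 8 longest; the 6 densest and 6 sparsest; and the 4 with the lowest partnered share at 20 or more peaks a list. Some results under this rule are not reported here. No genome sequence was used, so sequences and GC content of members, exons and introns were not analysed here, and CAGCTG was searched in promoter windows only. Alternatives varied the peaks entering, the meaning of shared, the list, gene length, margin, width, overlapping genes and chromosome make-up; weighting by gene number, splitting lists by gene length and leaving out the crowded stretch of a gene were added after seeing the data.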

Additional observations from a re-analysis of the deposited data

How the results depend on the processing

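The lower density of shared regions in very long genes kept its direction under every alternative tried: 15 of 15 ratios to shorter genes were below 1, the value with all settings as described being 0.731. It was 0.758 with genes of 200 kb or more, 0.684 with 500 kb or more, 0.709 with no margin at gene ends and 0.755 with a margin of 5 kb. Leaving out a replicate gave 0.747 to 0.751. The largest move came from weighting shorter genes by the number of genes in their Mb of chromosome, at 0.896. This alternative was added after seeing the data, and that number is not independent of gene length. The share of very long genes with a member was 61.1% in place of 100% when each list kept its 10000 peaks with the highest −log10 q. Median folds of members in replicates 1 and 2 were 12.1 and 13.3 at a −log10 q of at least 5, 13.6 and 14.8 at a fold of at least 5, 51.6 and 49.1 with the 10000 strongest peaks, 11.4 and 12.7 at 50% reciprocal overlap, and 10.6 and 11.7 with summits within 200 bp. Partnered shares were 67.6% in replicate 1 at a −log10 q of at least 5, 66.6% and 57.5% at a fold of at least 5, 64.1% and 61.5% with the 10000 strongest peaks, 40.1% and 34.2% at 50% reciprocal overlap, and 47.1% and 40.2% with summits within 200 bp; these filters and definitions set such values by construction. Another 26 values stayed within their counting intervals. No paired analysis was possible because each list pools the libraries of 1 replicate and no 2 groups of samples were compared. The unknown depth of the lists limits how far weak regions could be detected, and a gene with few members may hold more at greater depth.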
